A study of Homo sapiens with 48 samples.

Results

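The regions described here are stretches of chromatin in L3.6pl cells. A peak of acetylation of lysine 27 of histone H3 (H3K27ac) was called there after each treatment with TNFα or TWEAK but not after vehicle. A missing call does not show that the mark was absent. L3.6pl is a human pancreatic ductal adenocarcinoma (PDAC) cell line, and vehicle was PBS. Members were chosen by the deposited H3K27ac peak calls themselves. Starting from the peaks called after 30 min of TNFα on chromosomes 1 to 22 and X, a region was a member when it shared at least 1 bp with a peak in each of the 3 other treated lists (TNFα 6 h, TWEAK 30 min and TWEAK 6 h), and no base with a vehicle peak. Of 53861 peaks at 30 min of TNFα, 9951 overlapped no vehicle peak. Of these, 2653 were also called at 6 h of TNFα, 1279 of those also at 30 min of TWEAK, and 598 of those also at 6 h of TWEAK. The 598 members were 1.11% of the starting peaks and 6.01% of those absent from vehicle. The series held 48 chromatin immunoprecipitation samples in 16 groups of 3, covering H3K27ac, RELA and RELB after vehicle, TNFα for 30 min or 6 h and TWEAK for 30 min or 6 h, and FOSL1 after vehicle alone. All came from one cell line, and the authors deposited 1 peak list per group with replicates merged, so no value below has a replicate error and no test between conditions was possible. Intervals on shares are exact (Clopper-Pearson) 95% intervals that cover counting error only, and regions are not replicates of a treatment.

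TNFα is the classical activator of canonical NF-κB signaling, in which RELA moves rapidly into the nucleus. TWEAK binds its receptor Fn14, encoded by TNFRSF12A, and also engages the slower noncanonical pathway, in which p100 is processed and RELB acts with p52. H3K27ac marks active enhancers and promoters. FOSL1 is a subunit of AP-1, a factor that occupies many enhancers in epithelial tumor cells. Centromeres carry alpha satellite, a tandem repeat of many near-identical units, where a short read can be placed at more than one position.

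The members fell into 2 kinds of sequence. One kind lay in tandem repeats, and a pair of stretches at a member on chromosome 5 (hg38, forward strand, chr5:47624133-47624232 and chr5:47624473-47624572) shows what such a repeat looks like. The second stretch starts 340 bp after the first and runs 65 bp past the end of the acetylated peak, 93 of 100 bases match, and the 7 bases that differ are in capitals.
First copy: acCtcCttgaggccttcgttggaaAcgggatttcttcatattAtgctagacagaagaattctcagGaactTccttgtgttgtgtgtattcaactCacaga
Second copy: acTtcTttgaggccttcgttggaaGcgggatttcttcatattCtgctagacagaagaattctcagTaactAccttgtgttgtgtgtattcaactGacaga

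The other kind lay outside tandem repeats, and some of these regions overlapped a RELA peak with a κB-like sequence near its summit. Windows of 40 bases around the NF-κB consensus nearest to the RELA summit are shown for 6 of them, on the forward strand of hg38 with the consensus match in capitals. They were chosen because they include IL32, TNFAIP3, CCL5 and TAP1, 4 genes tied to the NF-κB response, and the members next to GALNT18 and NAMPT, which rank high by both acetylation and RELA. They lie at chr16:3065290-3065329, chr6:137873544-137873583, chr17:35890202-35890241, chr6:32853752-32853791, chr11:11622298-11622337 and chr7:106425152-106425191, in that order.
IL32: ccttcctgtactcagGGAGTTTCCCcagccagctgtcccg
TNFAIP3: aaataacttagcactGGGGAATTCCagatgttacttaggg
CCL5: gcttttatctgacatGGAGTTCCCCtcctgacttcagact
TAP1: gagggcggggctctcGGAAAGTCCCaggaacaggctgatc
GALNT18: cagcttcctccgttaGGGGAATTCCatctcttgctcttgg
NAMPT: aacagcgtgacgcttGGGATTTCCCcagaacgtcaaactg
The matches at TNFAIP3 and GALNT18 were the same 10 bases. Among the 18 members described singly that carried RELA at 30 min of TNFα, 15 had the consensus within 100 bp of the RELA summit, and in 8 the match lay wholly inside the acetylated peak. Over all RELA regions outside tandem repeats 49.5% had the consensus in such a window, and these 18 were picked partly for strong RELA. At TNFAIP3 and NAMPT the printed match lies beside the member and not in it.

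By the definition of the members, H3K27ac peaks were called after both ligands, so the following levels are descriptions. Fold enrichment here is the peak caller's ratio of ChIP signal to background for a whole peak. For the 3 other treated lists it belongs to the peak with the highest fold among those sharing at least 1 bp with the member. That peak can span a different stretch, and 329 members were covered over at least 50% in each other list. Folds of different treatments at a member therefore need not describe the same bases. Its median over the 598 members was 2.89 at 30 min of TNFα, with a range of 1.35 to 5.88. The median was 2.72 for TNFα 6 h, 2.82 for TWEAK 30 min and 2.89 for TWEAK 6 h. The highest of the 4 folds came from TNFα 30 min in 188 regions, TNFα 6 h in 82, TWEAK 30 min in 134 and TWEAK 6 h in 194, so no single treatment gave the highest value at most of them. For comparison, the 43910 peaks of 30 min of TNFα that were also called in vehicle had a median fold of 3.19. Members were shorter, with a median length of 424 bp against 837 bp, and less significant, with a median −log10 q of 3.38 against 6.55.

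Many members were weak calls. A q value of at most 0.001 was reached in all 4 treated lists by 80 members, and in none of them by 108. A fold of at least 3 in every treated list was seen at 68 members. The vehicle list held 59855 peaks, against 53861 to 61154 in the 4 treated lists. Whether weak regions were called as readily in vehicle as after treatment was not tested. When the 5 H3K27ac lists were merged into 81561 regions, 554 of these were missing from vehicle alone. Regions missing from a single treated list were more numerous, with 760 missing from TNFα 6 h alone, 1181 from TWEAK 6 h alone, 1324 from TWEAK 30 min alone and 2442 from TNFα 30 min alone. Absence from vehicle with presence in every treated list was therefore the least common of the 5 patterns in which exactly 1 list lacked a region.

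At the edge of the definition, 15 members had a vehicle peak within 100 bp (median fold 2.63), and 56 peaks present in the other 3 treated lists were kept out because they shared 1 to 100 bp with a vehicle peak (median fold 2.65). A vehicle peak lay within 1000 bp of 177 members, while 212 members were more than 10 kb from any. At 73 members a peak of another treated list reached over a vehicle peak. The 1526 peaks absent from vehicle and present in exactly 2 of the other 3 treated lists had a median fold of 2.78.

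Tandem repeats held 143 of the 598 members, or 23.9% (20.5 to 27.5). The measure was the best match of the 1000 bp around a peak's center with itself at shifts of 1 to 400 bp, and a match at 0.4 or more of the bases counted as a repeat. Over all peaks of 30 min of TNFα the share was 6.62%, and over those also called in vehicle 4.96%. It was 13.9% over all 9951 peaks absent from vehicle, members included. Peaks in no other H3K27ac list had 11.2%, and those gained after TNFα only 7.59%. Peaks absent from vehicle as a whole thus also had a higher share than peaks called in vehicle. A second measure asked whether at least 50% of the 50-base words of a peak occur at more than 1 place in the assembly. This held for 23.6% of members, against 9.53% of all 30 min peaks and 16.3% of those absent from vehicle. It also held for 128 of the 143 tandem members, whose words occurred at a median of 232 places.

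The repeat unit was that of alpha satellite in most of these regions. The best shift was within 2 bp of 171 bp in 30 members and within 5 bp of 342 bp, 2 units, in 89. Only 8 had a unit of 6 bp or less and 16 had another unit. Chromosomes 1, 5 and 19 held 30, 20 and 19 of the tandem members, and 129 of 143 were intergenic. The strongest of them by H3K27ac, at chr1:123901639-123901916, had fold enrichments of 5.88 for TNFα 30 min, 4.15 for TNFα 6 h, 4.27 for TWEAK 30 min and 4.001 for TWEAK 6 h. The member at which the stretches printed above start (chr5:47624133-47624507) had folds of 4.61, 3.55, 3.01 and 3.997 in the same order, and a self-match of 0.911.

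**Figure D1:**
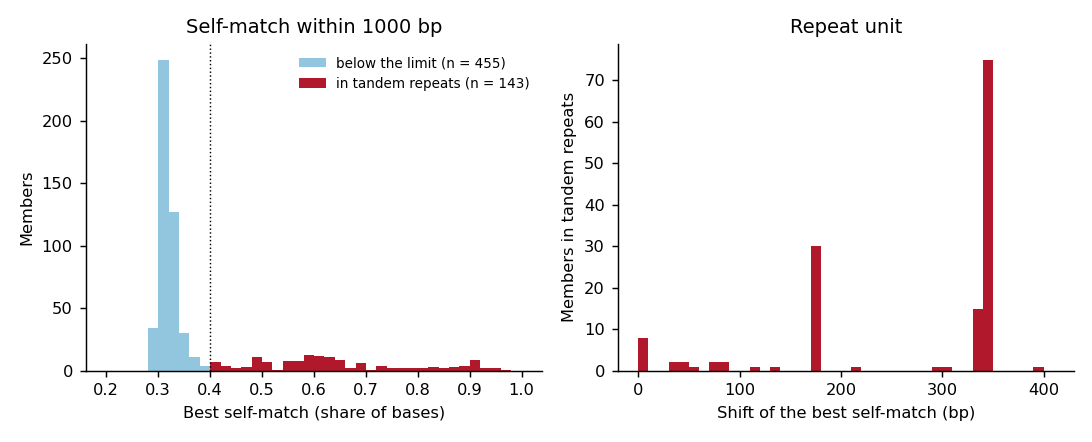
Left, number of members by best self-match within 1000 bp, with the limit of 0.4 dotted. Right, number of the 143 tandem members by the shift of that match in bp. The 455 members below the limit form one narrow group, and the tandem members gather near shifts of 171 and 342 bp.

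In the tandem members, RELA and RELB peaks were common in every condition, vehicle included. FOSL1 overlapped 128 of 143 (89.5%, 83.3 to 94), against 69.3% of all tandem peaks of 30 min of TNFα. RELA overlapped 61.5% in vehicle, 67.8% with TNFα 30 min, 74.1% with TNFα 6 h, 53.1% with TWEAK 30 min and 65.7% with TWEAK 6 h. RELB overlapped 76.9%, 66.4%, 65.7%, 58.7% and 60.8% in the same order, so the highest of these 10 shares was that of RELB in vehicle cells. Over all tandem peaks of 30 min of TNFα these shares were 40.7%, 46%, 49.7%, 37.1% and 44.9% for RELA and 51.1%, 42.8%, 46.2%, 38.6% and 41.1% for RELB. All 11 factor lists were present at 47 tandem members, none at 12, and FOSL1, RELA and RELB of vehicle together at 83. These joint counts were not made over all tandem peaks, so they are not shown to be particular to members. In tandem peaks that were also called in vehicle, the shares were lower but of the same kind, with 76.7% for FOSL1, 49.7% for RELA and 57.5% for RELB in vehicle. At chr1:123901639-123901916 the RELA folds ran from 7.51 to 9.47 over the 5 conditions and the RELB folds from 7.27 to 9.90, with vehicle at 8.27 for RELA and 9.77 for RELB. How reads were assigned among repeat copies was not given in the sources used here, and its part in these calls was not tested.

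Outside tandem repeats, 455 members remained, and here the factor peaks depended on the condition. RELA overlapped 2 members in vehicle (0.44%), 81 with TNFα 30 min (17.8%, 14.4 to 21.6), 41 with TNFα 6 h (9.01%, 6.54 to 12), 9 with TWEAK 30 min (1.98%) and 3 with TWEAK 6 h (0.659%). RELB overlapped 3 in vehicle (0.659%), 0 with TNFα 30 min, 5 with TNFα 6 h (1.1%), 0 with TWEAK 30 min and 19 with TWEAK 6 h (4.18%, 2.53 to 6.44). A count of 0 of 455 allows a share of up to 0.807% (upper exact bound). The lists differed in size, with 11249 RELA peaks at 30 min of TNFα against 2777 at 30 min of TWEAK and 4038 RELB peaks at 6 h of TWEAK, and a region can only overlap what was called. The TNFα 30 min list of RELA carries a name that does not settle whether all 3 replicates entered it.

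Among all 30 min peaks outside tandem repeats, RELA overlapped 0.491% in vehicle, 10.1% with TNFα 30 min, 4.45% with TNFα 6 h, 0.97% with TWEAK 30 min and 0.489% with TWEAK 6 h. For RELB these shares were 0.294%, 0.121%, 0.475%, 0.0875% and 2.08% in the same order. The members' interval lay above the background share for RELA at both times of TNFα and RELB at TWEAK 6 h, and held it for the other 7 lists. With the repeats included, the shares of all 30 min peaks were 12.5% for RELA at 30 min of TNFα, 4.67% for RELB at 6 h of TWEAK and 52.7% for FOSL1. FOSL1, measured in vehicle cells, overlapped 89 of the 455 members (19.6%, 16 to 23.5), against 51.5% of all 30 min peaks outside tandem repeats and 60.3% of those also called in vehicle. RELA at 30 min of TNFα overlapped 10.7% of peaks outside repeats also called in vehicle. The members outside repeats therefore had more of this RELA and less FOSL1 than peaks also called in vehicle. Neither interval held the comparison value.

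**Figure D2:**
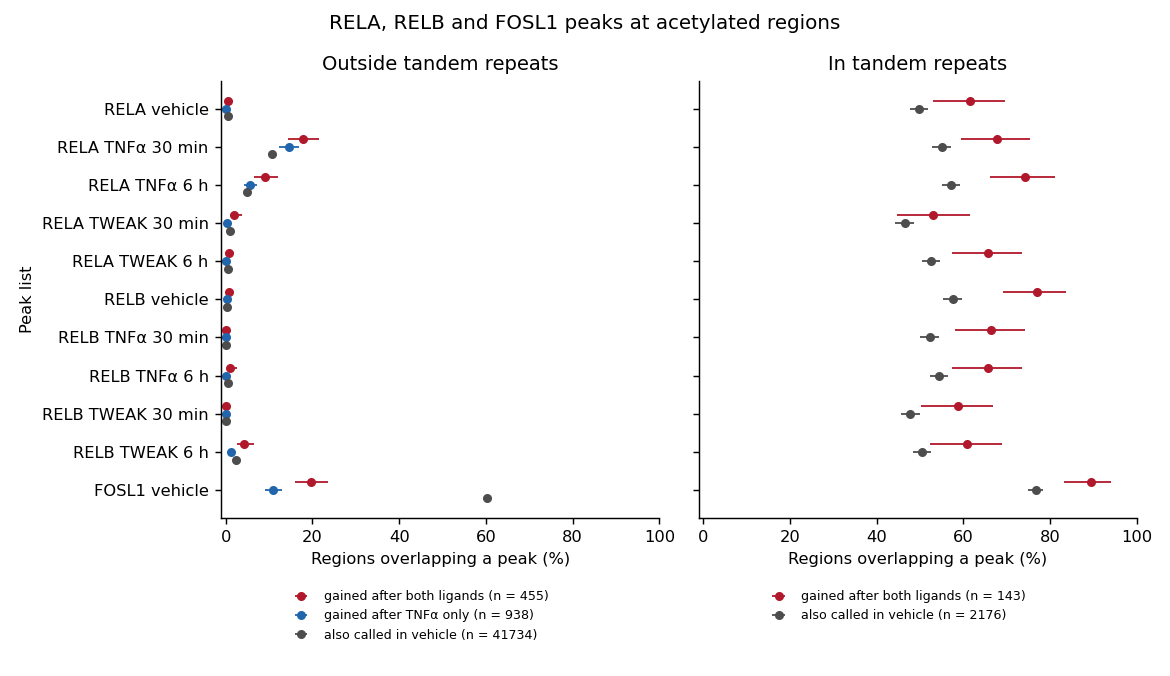
Share of regions (%, with exact 95% intervals) that overlap a peak in each of 11 RELA, RELB and FOSL1 lists, outside tandem repeats (left) and in them (right). Outside repeats the RELA share of members is highest at 30 min of TNFα (17.8%) and the FOSL1 share is 19.6% against 60.3% in peaks also called in vehicle. In repeats each of the 11 shares of members is above 50%.

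Peak length moved with these shares. Among members outside tandem repeats, RELA at 30 min of TNFα overlapped 6 of 165 peaks under 400 bp (3.64%, 1.35 to 7.75), 31 of 202 from 400 to under 800 bp (15.3%) and 44 of 88 of 800 bp or more (50%, 39.1 to 60.9). Peaks also called in vehicle had 1.52%, 5.13% and 16.9% in these classes. For FOSL1 the members had 15.8%, 20.8% and 23.9%, against 33.3%, 49.9% and 75.2%. Within each length class the RELA share was higher in members and the FOSL1 share lower, except that the interval of the shortest members for RELA held the value of the comparison peaks. Weighted to the members' lengths over 7 length classes, peaks also called in vehicle had 5.59% RELA and 47.2% FOSL1.

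Acetylation gained after TNFα only is the closest comparison: 938 regions outside tandem repeats were called at both times of TNFα and in neither TWEAK list nor vehicle. RELA at 30 min of TNFα overlapped 14.5% of them (12.3 to 16.9), and 6.49%, 20.3% and 67.3% by length class. The members' shares were lower in each class, at 3.64%, 15.3% and 50%, while the intervals of the 2 sets overlapped in each. Overlap of intervals is not a test, and no test of a difference was run. Weighted to the members' lengths, the TNFα-only share was 25.5%, above the 17.8% of members and their interval (14.4 to 21.6). The smallest length class behind it held only 24 regions. RELB at 6 h of TWEAK overlapped 1.28% of the TNFα-only regions (0.663 to 2.22) and 4.18% of members (2.53 to 6.44), and FOSL1 10.9% (8.95 to 13) and 19.6% (16 to 23.5). These pooled intervals did not overlap. Within length classes they overlapped in all 3 for RELB, and for FOSL1 under 400 bp (10.6 to 22.2 against 7.66 to 12.8) and at 800 bp or more (15.4 to 34.1 against 9.63 to 32.5). They were apart for FOSL1 from 400 to under 800 bp (15.4 to 27 against 7.84 to 15.1). Within a length class the intervals were thus apart only for FOSL1 in the middle class, which leaves differences in the other classes undecided. Weighted to the members' lengths, the TNFα-only shares were 2.22% for RELB, which lay just below the members' interval, and 12.2% for FOSL1, also below it.

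**Figure D3:**
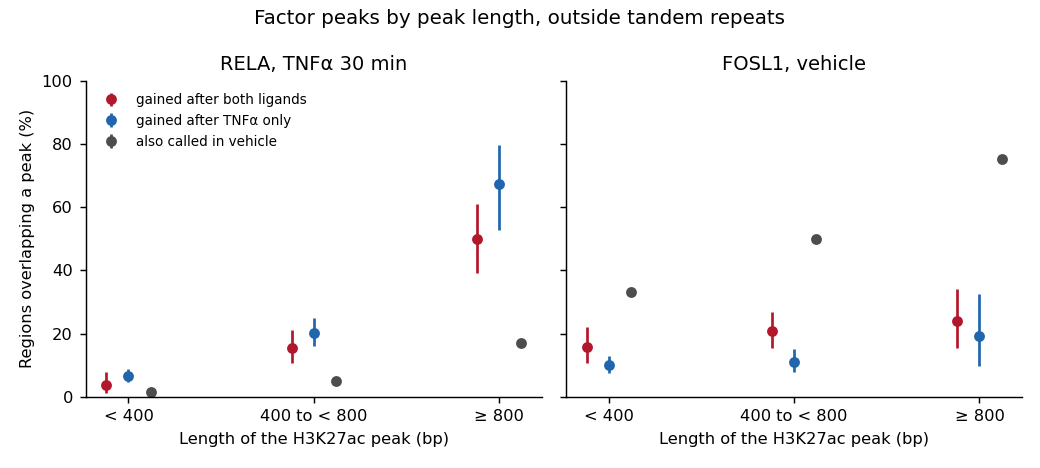
Share of regions outside tandem repeats (%, with exact 95% intervals) that overlap RELA at 30 min of TNFα (left) or FOSL1 in vehicle (right), by length of the H3K27ac peak in bp. Members of 800 bp or more have RELA at 50% against 16.9% in peaks also called in vehicle, and FOSL1 at 23.9% against 75.2%.

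The 81 members with RELA at 30 min of TNFα were compared with the 4482 peaks outside repeats that carried RELA at that time and were acetylated in vehicle. Neither RELA nor RELB had a vehicle peak at 77 of the 81 (95.1%), against 93.9% of the 4482. RELA was still called with TNFα 6 h in 39 (48.1% against 40%), RELB with TWEAK 6 h in 19 (23.5% against 18.8%), RELA with TWEAK 30 min in 9 (11.1% against 10.2%) and RELA with TWEAK 6 h in 3 (3.7% against 4.86%). A TWEAK list of either factor was present at 22 (27.2% against 22.3%), although all 81 carried H3K27ac after TWEAK by definition. No RELA or RELB list other than RELA at 30 min of TNFα had a peak at 41 (50.6% against 57.4%). The NF-κB lists thus had shares at the members close to those at RELA-bound peaks also called in vehicle. Each of the 19 members with RELB at 6 h of TWEAK also had RELA at 30 min of TNFα. Among peaks outside repeats also called in vehicle, 972 had RELB at 6 h of TWEAK, and 844 of these also had that RELA peak. This pairing was thus common outside the members too. FOSL1 differed more, since it overlapped 24 of 81 (29.6%), against 81.2% of the 4482.

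The RELA peaks at members were stronger than the rest of the RELA list. By RELA summit, 79 RELA regions outside tandem repeats overlapped a member, with a median RELA fold of 8.56 (quartiles 6.08 and 13.4). The 4602 RELA regions at 30 min peaks also called in vehicle had a median of 6.5, and the 3139 with no H3K27ac peak at 30 min of TNFα had 5.93. The NF-κB consensus, searched on both strands within 200 bp centered on the RELA summit, was present in 50 of the 79 (63.3%, 51.7 to 73.9), in 43.2% and in 56.7% of the other 2 sets, the last of which lies within the interval of the first. The AP-1 motif TGANTCA was present in 20.3%, 20.7% and 16.8%. The RELA summit lay inside the acetylated peak in 47 of 81 pairs and outside it in 34, there at a median of 84.5 bp from the edge.

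Most members outside repeats had no NF-κB peak, as do most H3K27ac peaks. No RELA or RELB list of any condition overlapped 372 of the 455 (81.8%), against 89.2% of all 30 min peaks outside repeats. None of the 11 lists overlapped 307 (67.5%), against 45.7%, and FOSL1 was the only factor at 65 (14.3%), against 43.4%. Of the 938 TNFα-only regions, 85% had no RELA or RELB list, 77% had none of the 11 lists and 8% had FOSL1 alone. Against these, members were less often without any factor peak and more often had FOSL1 alone. In the central 300 bp of the members outside repeats, the NF-κB consensus was present in 10.1% and the AP-1 motif in 14.7%, against 11.2% and 16.4% of all 30 min peaks outside repeats. With repeats included these shares of all 30 min peaks were 10.7% and 15.4%. The members as a set thus had shares of both motifs near those of H3K27ac peaks in general.

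Binding varied among the members with the strongest RELA signal. Next to MACROD2 (member chr20:14845861-14846372, in an intron of this gene) RELA reached its highest fold at any member outside repeats, 25.01 at 30 min of TNFα, with no RELA or RELB peak in any other condition and FOSL1 at 5.93. FAM151B (fold 20.0) and NAMPT (fold 19.7, at 139341 bp from the start site of NAMPT, which encodes an enzyme of NAD synthesis) likewise had RELA at 30 min of TNFα alone. At FRS2, an adaptor of FGF receptors, the RELA folds were 19.5 with TNFα 30 min, 8.57 with TNFα 6 h and 7.01 with TWEAK 30 min, and RELB reached 8.97 with TWEAK 6 h. SLCO3A1, a transporter gene, had RELA folds of 19.5, 18.7 and 13.1 in the same order and RELB at 8.27. These regions shared the highest RELA signal at 30 min of TNFα, but only some kept it at 6 h or had a peak after TWEAK.

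RELB at 6 h of TWEAK was strongest at SYNPO, which encodes an actin-associated protein (member chr5:150599252-150601010, fold 20.0). This member also had RELA and RELB peaks in vehicle at folds of 7.66 and 4.98, and RELA at 18.1 at 30 min of TNFα. GALNT18 (chr11:11622305-11622737, 300 bp from a start site) had RELB at 14.02 with TWEAK 6 h, and RELA at 17.1 and 11.1 with TNFα and 9.88 and 8.56 with TWEAK, the earlier time first. CSNK1E, a casein kinase gene, had RELB at 13.9 and RELA at 6.19 at 30 min of TNFα. SBNO2 had RELB at 13.1 and RELA at 12.04, and MYBPC1 RELB at 10.3 and RELA at 7.87. Of the 8 named members with both peaks, the RELB fold was the higher number at SYNPO, CSNK1E, SBNO2 and MYBPC1. The RELA fold was the higher number at FRS2, SLCO3A1, IL32 and GALNT18. This split follows in part from the naming, since members were picked for high RELA or for high RELB. The folds also come from different antibodies, ligands and times, so they are not on a common scale. ETS2, a transcription factor gene, and PITPNA, a lipid transfer protein gene, had RELA at 17.6 and 16.9 at 30 min of TNFα and no RELB peak.

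**Figure D4:**
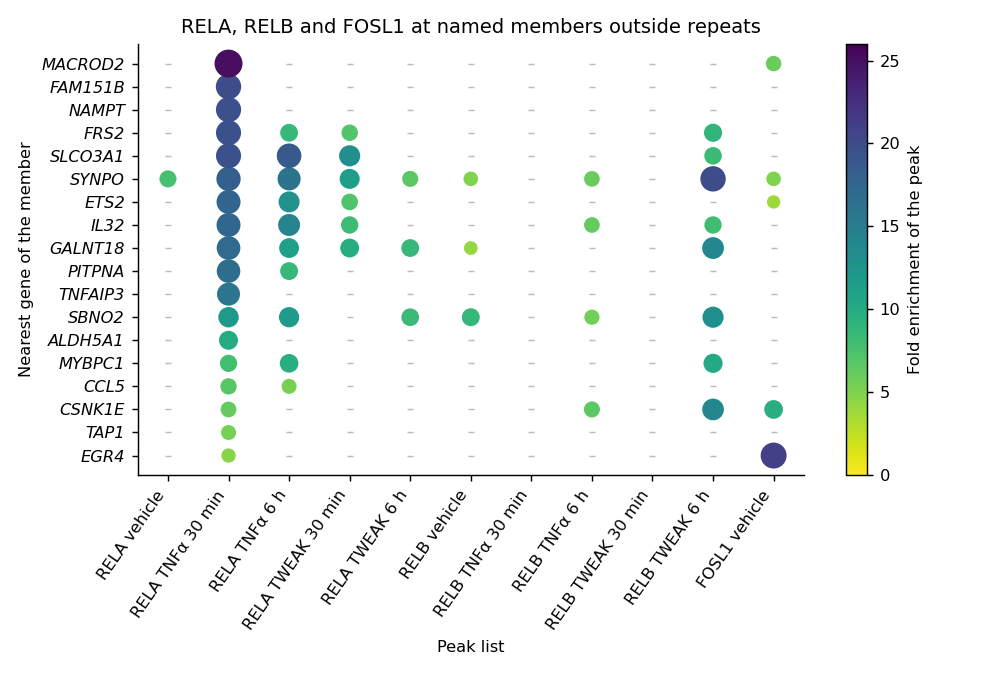
Fold enrichment (color and point size) of the strongest RELA, RELB or FOSL1 peak in each list at named members outside repeats that carry RELA at 30 min of TNFα, with a dash where no peak was called. Every row has a point in the RELA TNFα 30 min column, from 4.71 at EGR4 to 25.01 at MACROD2, and the RELB TWEAK 6 h column is the only RELB column with folds above 10.

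Among the 10 members outside repeats with the highest H3K27ac at 30 min of TNFα, EGR4 came first. EGR4 is an immediate early transcription factor, and its member (chr2:73293076-73294134) covers the start site. H3K27ac folds there were 5.37 with TNFα 30 min, 3.13 with TNFα 6 h, 5.42 with TWEAK 30 min and 3.61 with TWEAK 6 h, so both early values were above both late ones. FOSL1 in vehicle had a fold of 21.1 there, although no H3K27ac peak was called in vehicle within 8252 bp. GALNT18 followed with folds of 4.85, 4.66, 4.65 and 3.64 in the same order. FRS2 and NAMPT were higher after TNFα (4.73 and 4.98, and 4.69 and 4.17) than after TWEAK (2.71 and 3.20, and 2.495 and 3.10). AK7 was the reverse of these at 6 h, with 2.93 after TNFα and 4.79 after TWEAK. IYD, ALDH5A1 and DICER1 completed the set with TAP1 and HLA-E.

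Antigen presentation genes carried 2 of these 10. TAP1 encodes a subunit of the peptide transporter that loads MHC class I, and PSMB9, which starts 113 bp from the same member, an immunoproteasome subunit. The member (chr6:32852941-32854079) had H3K27ac folds of 4.68 and 3.71 with TNFα and 3.82 and 3.46 with TWEAK, the earlier time first. The nearest vehicle peak was 8668 bp away. RELA was called there only at 30 min of TNFα, with a fold of 5.39. At the start site of HLA-E, a nonclassical MHC class I gene, the folds were 4.35, 3.07, 4.15 and 3.93 with no RELA, RELB or FOSL1 peak. TAP2 and PSMB8 lie within 50 kb of the TAP1 member as well, so the 4 of 22 interferon and antigen presentation genes near a member rest on a single region.

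IL32, a proinflammatory cytokine gene, was covered by a member of 1855 bp (chr16:3064691-3066545). Its H3K27ac folds were 3.13, 2.88, 3.07 and 3.05 in the same order of treatments, nearly equal after the 2 ligands. RELA reached 17.6 with TNFα 30 min, 14.3 with TNFα 6 h and 8.06 with TWEAK 30 min, and RELB 6.15 with TNFα 6 h and 8.02 with TWEAK 6 h, with no peak of either in vehicle. A promoter window each of IL32 and TAP1 is printed from RefSeq (GRCh38.p14, 250 bases before to 50 after a start site, on the strand of the gene). They were picked because H3K27ac and RELA peaks were both called on them after treatment and not after vehicle. Each gene has another window that the member overlaps, chr16:3065534-3065833 for IL32 and chr6:32852712-32853011 for TAP1. Those held no consensus match and are not printed. The IL32 window is chr16:3065153-3065452 on the forward strand and the TAP1 window chr6:32853655-32853954 on the reverse strand, with NF-κB consensus matches in capitals.
IL32: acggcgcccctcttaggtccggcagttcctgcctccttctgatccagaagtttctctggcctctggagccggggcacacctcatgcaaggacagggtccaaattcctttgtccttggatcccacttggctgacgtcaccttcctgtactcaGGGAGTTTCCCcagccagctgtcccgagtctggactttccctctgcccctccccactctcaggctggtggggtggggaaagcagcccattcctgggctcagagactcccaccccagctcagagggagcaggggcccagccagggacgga
TAP1: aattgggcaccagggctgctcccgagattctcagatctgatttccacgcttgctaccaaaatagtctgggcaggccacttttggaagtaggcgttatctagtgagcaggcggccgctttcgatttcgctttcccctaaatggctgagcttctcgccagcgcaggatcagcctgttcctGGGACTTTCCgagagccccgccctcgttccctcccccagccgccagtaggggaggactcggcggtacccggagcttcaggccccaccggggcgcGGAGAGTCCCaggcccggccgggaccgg
In IL32 the capitals are 2 matches that overlap by all but 1 base. Members outside repeats overlapped 26 of the RefSeq promoter windows, of which 8 held the consensus (30.8%), against 3956 of all 35116 windows (11.3%). AP-1 was in 0 of the 26 and in 7.71% of all. A match is a description of letters, and several of the 26 windows belong to the same locus. Among the 8, the windows of LOC105374901 and LOC124901254 were counted separately although they hold the same match.

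CCL5, a chemokine gene, had a member 9179 bp upstream of its start site (chr17:35889972-35890735). H3K27ac folds were 3.64, 4.07, 3.13 and 4.27, and the nearest vehicle peak was 39500 bp away. RELA was called with folds of 6.83 and 5.39 with TNFα, the earlier time first, and not after TWEAK. The fold of the H3K27ac peak after TWEAK was lower than with TNFα at 30 min and higher at 6 h. TNFAIP3 encodes A20, a feedback inhibitor of NF-κB, and a member lay in its intron 5030 bp after the start site (chr6:137872617-137873332). The H3K27ac peaks at this member had folds of 2.41 and 3.402 at 30 min of TNFα and of TWEAK and 1.47 and 2.02 at 6 h. The earlier peak had the higher fold with either ligand, although the peaks need not span the same stretch. RELA was present at 30 min of TNFα alone, at 15.9.

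**Figure D5:**
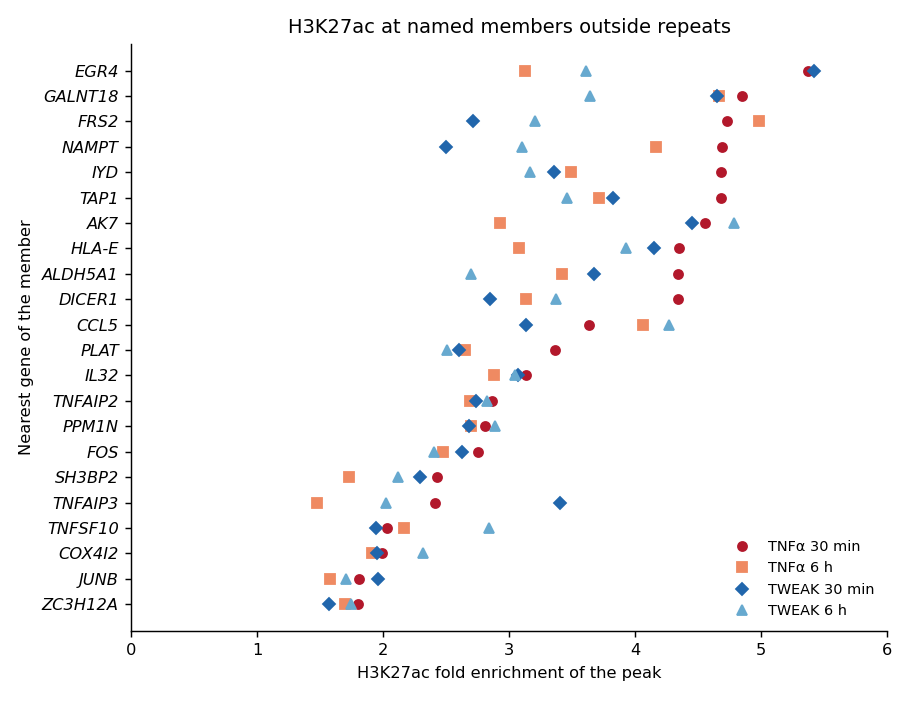
H3K27ac fold enrichment after each of 4 treatments at members outside repeats that rank highest at 30 min of TNFα or lie within 50 kb of a start site of a listed gene, named by nearest coding start site. EGR4 has the highest value (5.42, TWEAK 30 min), and the members near JUNB and ZC3H12A lie below 2 in every list.

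Listed NF-κB and tumor genes were read against the 2.88% of all 19609 protein-coding genes (564) that have a member outside repeats within 50 kb of a start site. Feedback regulators had 4 of 9, namely TNFAIP3, TNFAIP2, TNIP2 and ZC3H12A, the last a ribonuclease gene. Chemokines and cytokines had 3 of 28 (CCL5, IL32 and TNFSF10, which encodes TRAIL), AP-1 and immediate early factors 3 of 14 (FOS, FOSB and JUNB), and receptors and their TRAF, cIAP and NIK signaling 2 of 16 (TNFRSF12A, 44316 bp from the IL32 member, and IKBKB). Survival genes had 1 of 13, BCL2L1, an inhibitor of apoptosis. None of 11 NF-κB subunits and IκB proteins, 21 adhesion, matrix and invasion genes or 14 pancreatic lineage factors had one. These counts are small, and many of the members behind them were weak and close to vehicle peaks. JUNB, for example, had folds of 1.81, 1.57, 1.96 and 1.70 with a vehicle peak 230 bp away, ZC3H12A 1.80, 1.70, 1.57 and 1.74 with one 287 bp away, and TNFAIP2 2.86, 2.69, 2.74 and 2.82 with one 177 bp away. Of the gene-member pairs behind these counts, 17 in all from 13 members, RELA at 30 min of TNFα was present only at the members of TNFAIP3, IL32, CCL5 and TAP1.

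The study's own lists of expressed genes came from RNA-seq of the same kind of cells and are not independent of the treatments. Its list of common genes joins genes regulated by both ligands with a smaller set preferentially activated by TWEAK. Of its 626 names 490 matched a coding gene by symbol, and 24 of these had a member within 50 kb (4.9%, 3.16 to 7.2), GALNT18, IL32, TNFAIP3 and LMNA among them. Of its 310 TNFα-specific names 263 matched, and 19 of these had a member (7.22%, 4.41 to 11.1), JUNB, SBNO2, NOTCH1 and CSNK1E among them. Both intervals lay above 2.88%, and they overlapped each other. That 2.88% covers all protein-coding genes, expressed in these cells or not. The same share was not reported for expressed genes or for other H3K27ac peaks, so the excess is not shown to be particular to members. No test between common and TNFα-specific genes was run.

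Outside repeats, the members were mostly distal. Introns held 286 (62.9%), intergenic sequence 105 (23.1%) and exons 29 (6.37%). A coding start site lay within 1 kb of 35 (7.69%, 5.42 to 10.5), against 25.9% of all 30 min peaks outside repeats, 25% of all with repeats, and 30.2% of those also called in vehicle. At the members' lengths the last share was 19.9%. The promoter share was 5.23% over all 30 min peaks outside repeats that were absent from vehicle, members included. It was 4.9% over the TNFα-only regions. A low promoter share was thus not particular to members. The median distance to a coding start site was 28397 bp, against 16794 bp for peaks also called in vehicle. The 455 members stood at 451 separate places, with 4 pairs within 10 kb, so they did not gather in clusters.

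The 80 members with a q of at most 0.001 in all 4 treated lists were split between 41 in tandem repeats and 39 outside. Of these 39, RELA at 30 min of TNFα overlapped 12 (30.8%, 17 to 47.6). RELB at 6 h of TWEAK overlapped 3 (7.69%, 1.62 to 20.9) and FOSL1 8 (20.5%, 9.3 to 36.5). Over all 30 min peaks outside repeats these shares were 10.1%, 2.08% and 51.5%. Peak length was not matched here, and RELA was more frequent at longer peaks. RELA was present next to EGR4, GALNT18, TAP1, MET, ETS2, CCL5 and CDH5, among others, and MET encodes the receptor of hepatocyte growth factor. A start site lay within 1 kb of 10 of the 39 (25.6%, 13 to 42.1), near the 25.9% of all 30 min peaks outside repeats.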

How the data were processed

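H3K27ac, RELA, RELB and FOSL1 were measured by ChIP-seq in L3.6pl cells, with 3 replicates in each of 16 groups. The authors aligned reads to hg38 with Bowtie2 (version 2.5.0) and called peaks with MACS2 against input, broad for H3K27ac and narrow for the factors. The deposited lists hold, for 1 merged sample per group, a peak's position, its fold enrichment (a ratio of signal to background) and its −log10 q-value, and for narrow peaks the summit. Other columns, 32 in all, were not used. Depth is not recorded in the lists and is unknown, so no floor on a single value can be given.

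Overlaps needed at least 1 bp, on chromosomes 1 to 22 and X. Members and gene lists were chosen with earlier results of these data known, and nothing here is independent support for them. Sequence measures used hg38. Positions used GENCODE 44 start sites of protein-coding genes, a promoter being within 1 kb. Repeats were scored by self-match over 1000 bp at shifts of 1 to 400 bp with a limit of 0.4, motifs in the central 300 bp. Intervals were exact at 95%. Overlap, repeat and motif code was tested on simulated data (Python 3.11.15, pandas, scipy, pysam). Named members were, outside repeats, the 10 with the highest H3K27ac at 30 min of TNFα, the 10 with the highest RELA at that time, the 5 with the highest RELB at 6 h of TWEAK and every member within 50 kb of a listed gene, and in repeats the 5 with the highest H3K27ac. Other names in the text were chosen after their values were seen. Alternatives changed the q limit, the overlap, the distance to vehicle peaks, the repeat limit and the distances to factor peaks and start sites.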

Additional observations from a re-analysis of the deposited data

Results flagged for a closer look

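Outside chromosomes 1 to 22 and X, which the comparisons did not use, 24 of 1818 H3K27ac peaks of 30 min of TNFα met the same definition (1.32%), 0 of them among 34 on chromosome Y. These sequences are mostly unplaced or alternate pieces of the assembly. What this signal reflects was not tested.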

How the results depend on the processing

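Each of 43 alternative values was set against the value reported above. The 598 members became 80 when q of at most 0.001 was required in the 4 treated lists, 299 in the upper 50% by fold, and 329 with at least 50% of the peak covered in each other list. Under these 3 settings in turn, the share in tandem repeats was 51.2%, 35.5% and 35% (reported 23.9%), with RELB at 6 h of TWEAK 48.8%, 27.8% and 25.8% (17.7%) and with FOSL1 60%, 45.8% and 46.2% (36.3%). RELA at 30 min of TNFα over all members was 57.5% and 44.8% under the first and second (29.8%), and a promoter 13.8% under the first (6.19%). Without members that have a vehicle peak within 1000 bp, RELA was 34% and a promoter 4.28%. Outside tandem repeats RELA was 17.8%, RELB 4.18% and FOSL1 19.6%. A self-match limit of 0.5 gave 19.4% in repeats. Counting factor peaks within 500 bp gave 35.6% RELA and 49% FOSL1, and start sites within 5 kb gave 13.2%. In members of 800 bp or more outside repeats, an alternative chosen after seeing the data, RELA was 50% and FOSL1 23.9%. The other 17 values stayed within the interval of the reported share or within 1.5 times the reported count, the word-based repeat share of 23.6%, also chosen afterwards, among them.

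No paired analysis was possible because each group has 1 merged peak list, which carries no replicate numbers, and no replicate was left out. Weak calls are one limit, since 108 of 598 had q above 0.001 in every treated list.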
